A study of Saccharomyces cerevisiae with 10 samples.

Results

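The genes described here are 36 genes of methionine, cysteine and sulfate assimilation in *Saccharomyces cerevisiae*, among 5449 genes of this yeast measured on the array. They were chosen by name, as the known enzymes, permeases and regulators of these pathways, and not by their values. Earlier results of these data were known when the list was made. Each of the 36 was measured by 1 probe set, and every value below is a log2 expression level of that probe set. Levels of different genes are not compared, because each probe set has its own response.

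Affymetrix Yeast Genome 2.0 arrays were used to follow expression through a growth regime of stress and recovery at 30 °C in YPD, a rich glucose medium that holds yeast extract and peptone. Sample A was exponentially growing cells before any stress. Sample B was taken during stress adaptation, 1 h after the culture was diluted and mixed with fresh YPD that held KCl. Sample C consisted of cells that had adapted to growth in 1 M KCl. Sample D was taken during recovery, 1 h after cells were pelleted and resuspended at lower density in fresh YPD free of KCl. In Samples B and D the change of KCl therefore cannot be told apart from the dilution into fresh medium. For Sample E, recovery had lasted 2 to 3 generations. All samples came from the same strain, given as BQS1350 in the labels and in the study's methods as a By4742 derivative with a myc tag on the histone acetyltransferase Gcn5 and the markers MATα, his3, leu2, lys2 and ura3. No sample carried untagged Gcn5. Each sample had 2 arrays, 1 from each of 2 culture batches that share the replicate numbers 1 and 2, so every mean below is over n = 2.

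Yeast takes up sulfate, activates it with ATP, reduces it to sulfite and then to sulfide, and joins the sulfide to O-acetylhomoserine to form homocysteine. Methylation of homocysteine gives methionine, which is converted to S-adenosylmethionine, the methyl donor of the cell. The used donor returns to homocysteine in the methyl cycle. Transsulfuration connects homocysteine and cysteine in both directions, and cysteine is needed for glutathione. The activator Met4, which binds DNA through Cbf1, Met28, Met31 and Met32, switches these genes on when sulfur is scarce, and the F-box protein Met30 holds Met4 in check when methionine is plentiful.

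On 8 of the arrays all 36 genes exceeded a background level, taken as the 95th percentile of 1746 probe sets for genes of other organisms (5.11 to 5.68). The exceptions were SUL1 on both Sample A arrays and MET28 on Sample A replicate 1. Genes that mark α cells had levels of 10.35 to 14.06 and genes that mark a cells 5.23 to 7.45. LYS2 and URA3 lay below this background on all 10 arrays. LEU2 lay between 5.18 and 5.99, while HIS3, listed as mutated in the strain, lay between 10.21 and 11.58. Between the arrays of Sample B the root mean square difference was 1.07 over the 36 genes and 1.04 over all genes, more than in any other sample (0.32 to 0.44 and 0.32 to 0.48). Array medians ranged from 9.59 to 10.19. Subtracting them moved the median difference of all genes to -0.06 for Sample B against Sample A, where it was 0.08 as deposited, to -0.02 for Sample E against Sample A, where it was 0.13, and to -0.01 for Sample E against Sample D, where it was 0.25. Levels are relative within an array, so a change in total RNA per cell cannot be told apart from a change of all genes.

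**Figure D1:**
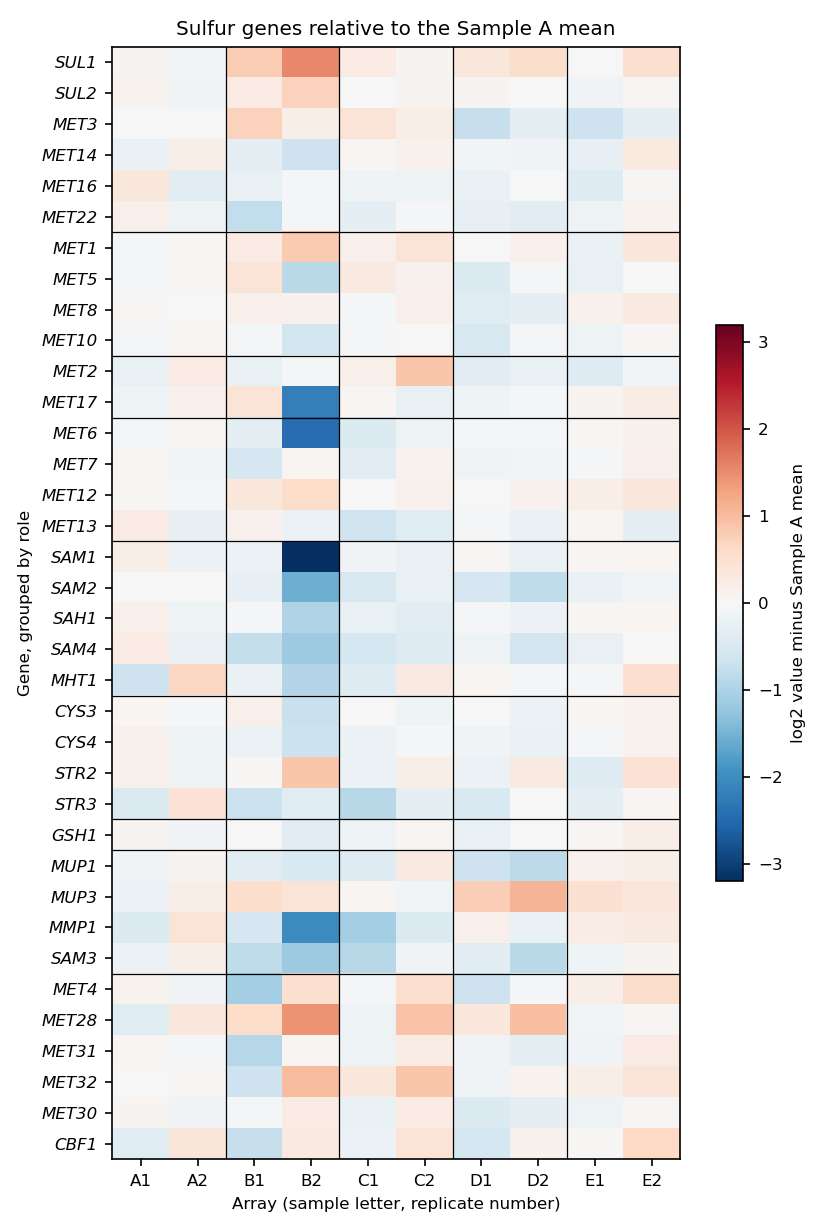
Level of each of the 36 genes (rows, grouped by role from sulfate uptake at the top to regulators at the bottom) on each of the 10 arrays (columns), as the log2 value minus the Sample A mean of that gene. The darkest cells are SAM1, MET6, MET17 and MMP1 on Sample B replicate 2, while the highest values, for SUL1 and MET28, also lie in Sample B.

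The first comparison asked how the pathway stood 1 h after the dilution into fresh medium with KCl. The sulfate permease gene SUL1 and the regulator gene MET28 were higher in Sample B on both arrays, and SAM4, which encodes a homocysteine methyltransferase that uses S-adenosylmethionine, was lower on both. None of the 36 passed an adjusted p of 0.05 in limma's fit over all 10 arrays, in which 3.51% of all genes were higher and 0.899% lower. At an unadjusted p under 0.05 there were 6 of the 36 (16.7%), against 20% of all genes. With the culture batch as a block, SUL1 and MET28 passed, 2 of 36 (5.56%) against 8.11% of all genes higher, and none of the 36 was lower, against 2.59% of all genes.

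SUL1 encodes 1 of a pair of high-affinity sulfate permeases. Its level was 6.11 and 6.84 on the Sample B arrays, against 5.40 and 5.22 on the Sample A arrays. Both Sample B values were above every other SUL1 value of the series. The log2 difference was 1.17 ± 0.30 (SE), with a 95% interval of 0.48 to 1.86, and the adjusted p by limma was 0.0697 without the block and 0.0322 with it. Both Sample A values lay below the background. With that level (mean 5.54) for Sample A, the mean difference as deposited is given as at least 1.92-fold higher in Sample B. This bound covers neither the spread between arrays nor the scaling. The log2 difference was 1.02 after median centring and 0.66 after quantile normalization (adjusted p = 0.0232 and 0.0351 by limma without the block). SUL2, the paralogous permease gene, had 7.66 and 8.14 in Sample B and 7.53 and 7.29 in Sample A, which did not overlap (log2 difference 0.50, adjusted p = 0.303 by limma).

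MET28 encodes a basic leucine zipper protein that stabilises the binding of the Cbf1 and Met4 complex to DNA. It had 6.17 and 7.02 in Sample B, against 5.20 and 5.95 in Sample A. The mean log2 difference was 1.02 ± 0.45, with an adjusted p of 0.256 by limma without the block and 0.042 with it. Sample A replicate 1 lay below the background. With that level (5.68) for this array, the mean difference as deposited is given as at least 1.72-fold higher in Sample B, a bound that covers neither spread nor scaling. On the same basis it was at least 0.49 on the log2 scale within replicate 1, against 1.07 within replicate 2. The call with the block was lost with each array centred on its median (0.88, adjusted p = 0.0688) and after quantile normalization (0.51, adjusted p = 0.33).

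SAM4 had 11.30 and 10.92 in Sample B, against 12.32 and 11.82 in Sample A. The arrays did not overlap, and the Sample B values were the lowest of the 10. The log2 difference was -0.96 ± 0.28, which is 1.94-fold lower, with an adjusted p of 0.0988 by limma and 0.0503 with the block. Without the block it passed the threshold after quantile normalization (-1.1, adjusted p = 0.0485) and not after median centring (-1.1, adjusted p = 0.0803). With the block it passed under both scalings, each with an adjusted p of 0.0204. SAM3, the neighbouring gene by locus tag, encodes the S-adenosylmethionine permease and had 8.99 and 8.64 in Sample B against 9.62 and 9.99 in Sample A, again without overlap (-0.99 ± 0.33, adjusted p = 0.132 by limma).

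The largest differences of Sample B against Sample A rested on 1 array. SAM1, which encodes an S-adenosylmethionine synthetase, had 13.25 and 10.22 in replicates 1 and 2 of Sample B, against 13.62 and 13.24 in Sample A. MET6, the gene of methionine synthase, had 12.63 and 10.52 in Sample B, against 12.92 and 12.98 in Sample A. MMP1, which encodes the S-methylmethionine permease, had 9.55 and 8.07 in Sample B, against 9.67 and 10.52 in Sample A. In each of these 3 genes replicate 2 of Sample B was the lowest of the 10 arrays, while the differences within replicate 1 were -0.37 for SAM1, -0.30 for MET6 and -0.12 for MMP1. The mean differences were -1.69 ± 0.76 for SAM1, -1.38 ± 0.55 for MET6 and -1.28 ± 0.49 for MMP1, with adjusted p-values of 0.261, 0.208 and 0.189 by limma.

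MET17 encodes the O-acetylhomoserine sulfhydrylase that incorporates sulfide. Its Sample B levels were the highest of the series, 13.61 in replicate 1, and the lowest, 10.98 in replicate 2, against 13.02 and 13.32 in Sample A. The same split was seen for MET5, a sulfite reductase subunit gene, with 10.60 and 9.31 in Sample B against 10.15 and 10.22 in Sample A. SAM2, the other S-adenosylmethionine synthetase gene, had 12.34 and 11.04 in Sample B, both below the 12.59 and 12.60 of Sample A. SAM1 and SAM2 are close paralogues, and whether their probe sets share transcripts was not tested. Replicate 2 was lower than replicate 1 by at least 1 on the log2 scale in these 6 genes, 16.7% of the 36, against 3.76% of all genes. After median centring the count was 12 (33.3%), against 13.3% of all genes. As deposited, the differences of replicate 2 minus replicate 1 were -3.03 for SAM1, -2.63 for MET17, -2.11 for MET6, -1.48 for MMP1, -1.31 for SAM2 and -1.29 for MET5. SAM1 ranked 5, MET17 ranked 13 and MET6 ranked 25 from the lowest of 5449 genes.

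The opposite split was seen in 3 regulator genes, 8.33% of the 36 against 28.6% of all genes. MET32 was higher on Sample B replicate 2 than on replicate 1 by 1.68, MET4 by 1.58 and CBF1 by 1.01. After median centring 1 of the 36 remained, MET32 (2.78%), against 10.8% of all genes. For MET4, which encodes the activator itself, the levels were 8.28 and 9.87 in Sample B, against 9.48 and 9.24 in Sample A. For MET32, a zinc finger protein gene, they were 5.45 and 7.13 in Sample B, against 6.10 and 6.15 in Sample A. The value of 5.45 lay at the background level of that array (5.44), so the size of the MET32 split is uncertain. In MET4 and MET32 replicate 1 of Sample B was the lowest of the 10 arrays. Replicate 2, as deposited, lay above both Sample A arrays.

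**Figure D2:**
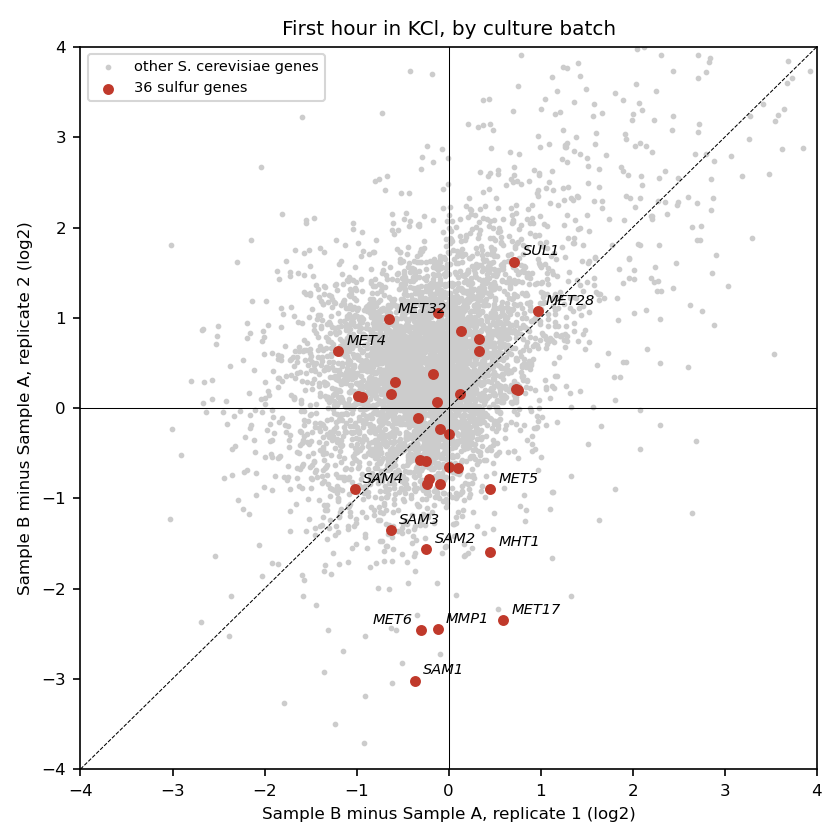
Log2 difference of Sample B minus Sample A within replicate 1 (horizontal) and within replicate 2 (vertical) for the 36 genes (red) and all other genes (grey), with axes limited to ±4, a dashed line of equal difference and the members with the largest differences named. SUL1, MET28 and SAM4 lie on the same side of 0 in both batches. SAM1, MET6, MMP1, MET17, SAM2 and MHT1 lie far below the line. Of these, MET17 and MHT1 lie above 0 in replicate 1 and below 0 in replicate 2, and the others below 0 in both.

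Several control measures differed between the Sample B arrays or set them apart. The ACT1 control probe sets gave a 3′ minus 5′ difference of 0.56 for replicate 2 and 0.18 for replicate 1, with 0.25 to 0.37 elsewhere. Those for EAF5 gave 1.31 for replicate 2 and 1.16 for replicate 1, with 0.76 to 1.08 elsewhere. The 18S rRNA control probe set set both Sample B arrays apart, with 10.09 and 10.31 against 11.21 to 12.66 on the other 8. The share of genes lower on replicate 2 by at least 1 also varied with level. It was 15.1% of the genes between the 90th and 95th percentile of level on the other 8 arrays and 5.86% of the top 5 percent, against 3.02% of the lowest 90 percent. MET6 and MET17 lie in the first of these ranges, SAM1 in the second, and MET5, SAM2 and MMP1 in the third. The part of these measures in the result was not tested.

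Leaving out either Sample B array changed the comparison, under the assumption that the array left over varied like those of the other samples. Without replicate 1, limma called 14 of the 36, 4 higher (background 26.4% of all genes) and 10 lower (background 7.49%). SUL1, SUL2, MET28 and MET32 were higher, by 0.73 to 1.53. SAM1, MET6, MET17, MMP1, SAM2, SAM3, SAM4, SAH1, MET5 and CYS3 were lower, with differences of -3.21 to -0.72. Without replicate 2 none of the 36 passed (4.53% of all genes higher and 5.14% lower), and the differences were -0.18 for SAM1, -0.33 for MET6 and 0.44 for MET17.

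By role, the methyl cycle genes SAM1, SAM2, SAH1, SAM4 and MHT1 all had a lower mean in Sample B, also after median centring and quantile normalization, with a median difference of -0.90 (-0.24 in replicate 1 and -1.57 in replicate 2). SAH1 encodes S-adenosylhomocysteine hydrolase and MHT1 the S-methylmethionine-homocysteine methyltransferase. The 4 permease genes had a median of -0.70 (3 lower), the 2 of sulfide incorporation -0.51 (both lower) and the 4 of transsulfuration -0.36 (3 lower). The median was -0.13 for the 4 genes of methionine synthase and folates, -0.06 for the 6 regulators, -0.04 for the 4 of sulfite reduction and 0.16 for the 6 of sulfate uptake and activation. Over all 36 the median was -0.26, against 0.08 over all genes. Of the 36, 25 genes were below 0 and 11 above, and of all 5449 genes 2367 were below and 3082 above. Both Sample B arrays lay above both Sample A arrays in 8 of the 36 (22.2%, all genes 23.1%) and below them in 8 (22.2%, all genes 15.9%), and after median centring in 6 (all genes 21.5%) and 9 (all genes 22.6%). As deposited, those above were SUL1, SUL2, MET3, MET1, MET8, MET12, MUP3 and MET28, and those below MET14, MET6, SAM2, SAM4, CYS4, MUP1, MMP1 and SAM3.

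The next comparison asked how cells growing in KCl after adaptation differed from cells that had not met it. None of the 36 passed in limma's fit with or without the block, in which 0.0184% of all genes were higher without the block and 0.642% with it. With the block 0.128% of all genes were lower, and without it 4.68% of all genes and none of the 36 had an unadjusted p under 0.05. Differences of Sample C minus Sample A ranged from -0.76 to 0.61, with a median of -0.04 over the 36 and -0.01 over all genes. The largest were for MMP1 (-0.76 ± 0.49), MET32 (0.61 ± 0.48), STR3, the cystathionine beta-lyase gene (-0.60 ± 0.37), and MET2, the homoserine O-acetyltransferase gene (0.51 ± 0.31), each with an adjusted p of 1.00 after rounding. MMP1 had 9.02 and 9.65 in Sample C, against 9.67 and 10.52 in Sample A, and MET32 had 6.45 and 7.02 against 6.10 and 6.15. Neither pair overlapped. Sample C lay wholly above Sample A in 4 of the 36, MET1, MET3, MET5 and MET32 (all genes 18.1%), and wholly below it in 6 (all genes 17.8%).

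Against Sample B, SUL1 was lower in adapted cells on both arrays, while SAM1, MET6 and MET17 were far above Sample B replicate 2 and close to replicate 1. None of the 36 passed in limma's fit, and none of all 5449 genes did (0%), while 561 genes (10.3%) and 1 of the 36, SUL1, had an unadjusted p under 0.05. SUL1 had 5.57 and 5.40 in Sample C, against 6.11 and 6.84 in Sample B (-1.0 ± 0.30, 2.00-fold lower, adjusted p = 0.362). The arrays did not overlap. Both Sample C values lay close to the background level of their arrays (5.31 and 5.37), so this fold is approximate. The other large differences were 1.51 ± 0.76 for SAM1, 1.07 ± 0.55 for MET6 and 0.79 ± 0.67 for MET17, with adjusted p-values of 0.555 to 0.755. Sample C held 13.31 and 13.18 for SAM1, 12.50 and 12.78 for MET6 and 13.22 and 12.94 for MET17, near the higher of the Sample B arrays in each gene. Without Sample B replicate 1, limma called 7 of the 36 (6 higher, background 4.17% of all genes, and SUL1 lower, background 20.3%), and without replicate 2 none, with differences of 0.00 for SAM1, 0.02 for MET6 and -0.53 for MET17.

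**Figure D3:**
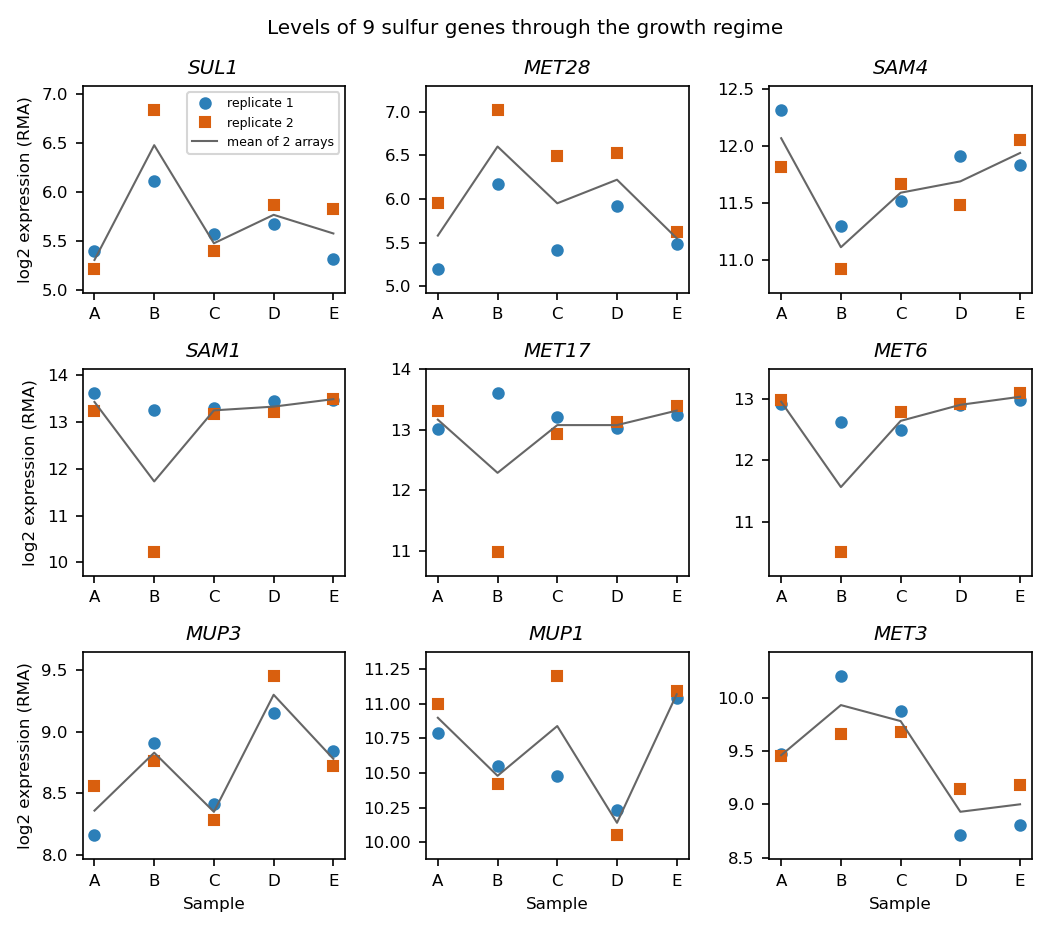
Log2 level of 9 sulfur genes in Samples A to E, with replicate 1 as circles, replicate 2 as squares and the mean of the 2 arrays as a line; each panel has its own vertical axis, which does not start at 0. SUL1 peaked in Sample B, SAM1, MET17 and MET6 were low only on Sample B replicate 2, and MUP3 was highest and, as deposited, MUP1 lowest in Sample D.

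The return to medium without KCl was followed at 1 h by Sample D. Of the methionine permease genes, MUP3 had its highest level here, and MUP1 its lowest as deposited but not after median centring. No gene of the 5449 passed in limma's fit against Sample A (0%), while 219 genes (4.02%) and 2 of the 36, MUP1 and MUP3, had an unadjusted p under 0.05. With the block 0.239% of all genes were higher and none of the 36 passed. Of the 36, SUL1 and MUP3 lay wholly above Sample A (2 genes, all genes 9.97%) and 12 wholly below it (all genes 31.8%), and after median centring 6 above (all genes 19.7%) and 6 below (all genes 18.1%). The SUL1 values of Sample A lay below the background. With that level for Sample A the SUL1 difference was at least 0.23 on the log2 scale, against 0.46 as deposited, a bound that covers neither spread nor scaling. The median difference was -0.12 over the 36 and over all genes alike.

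MUP3 encodes a low-affinity methionine permease. It had 9.15 and 9.45 in Sample D, against 8.16 and 8.56 in Sample A. Both Sample D values were above all other MUP3 values of the series, and the difference was 0.94 ± 0.24 (1.92-fold, 95% interval 0.39 to 1.49). The adjusted p by limma was 0.555, and 0.282 with the block. In a fit with the block that left out Sample B, the sample with the widest spread, it was 0.0262. This was the only call of the 36 in that fit for Sample D against Sample A (all genes 2.18% higher, 0.532% lower). Without Sample B and without the block the adjusted p by limma was 0.122, so the call needed both choices.

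MUP1 encodes the high-affinity methionine permease. Its level was 10.23 and 10.05 in Sample D, against 10.79 and 11.00 in Sample A, and the Sample D values were the lowest of the 10 arrays as deposited. After median centring Sample B replicate 2 was lower (0.22, against 0.63 and 0.36 in Sample D). The difference was -0.76 ± 0.27 (1.70-fold lower, 95% interval -1.39 to -0.14, adjusted p = 0.985 by limma, 0.107 with the block and without Sample B). The permease genes MUP1 and MUP3 thus lay on opposite sides of Sample A in Sample D. SAM2 had 12.06 and 11.79 in Sample D, against 12.59 and 12.60 in Sample A (-0.67 ± 0.39), without overlap. MET28 had 5.92 and 6.53 in Sample D, against 5.20 and 5.95 in Sample A (0.65 ± 0.45, or at least 0.41 with the background level for Sample A replicate 1). Both had an adjusted p of 1.00 after rounding.

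Sample D was also set against Sample C, the culture from which it was diluted. No gene was called without the block (0%), where 270 genes (4.96%) and 4 of the 36, MUP3, MET3, MET2 and MUP1, had an unadjusted p under 0.05, and 0.0184% of all genes were lower with it, none of them among the 36. MUP3 had 9.15 and 9.45 in Sample D, against 8.41 and 8.28 in Sample C (0.95 ± 0.24, 1.94-fold, adjusted p = 0.682 by limma). MET3, which encodes ATP sulfurylase, the first step of sulfate activation, had 8.71 and 9.14 in Sample D, against 9.87 and 9.68 in Sample C (-0.85 ± 0.28, 1.80-fold lower, adjusted p = 0.882). MET2 had 7.46 and 7.54 in Sample D, against 7.94 and 8.67 in Sample C (-0.81 ± 0.31, 1.75-fold lower, adjusted p = 0.969). In all 3 genes the arrays did not overlap. With the block and without Sample B these 3 were called, at adjusted p-values of 0.0208, 0.0413 and 0.0484 by limma, 1 higher (background 0.936%) and 2 lower (background 2.81%). Without Sample B and without the block these 3 did not pass (adjusted p = 0.115, 0.195 and 0.320 by limma).

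MMP1 had 10.25 and 9.89 in Sample D, against 9.02 and 9.65 in Sample C, also without overlap (0.74 ± 0.49, adjusted p = 1.00 after rounding). Among the 4 sulfite reduction genes both Sample D arrays were below both Sample C arrays, as in 12 of the 36 (33.3%) and 29.5% of all genes, and after median centring in 8 (22.2%) and 24% of all genes. MET1 and MET8 serve the synthesis of siroheme, the cofactor of sulfite reductase, and MET5 and MET10 encode its subunits. MET8 had 8.56 and 8.65 in Sample D, against 8.90 and 9.11 in Sample C, and MET10 had 9.34 and 9.81 against 9.82 and 9.83. The mean differences of the 4 ranged from -0.46 to -0.23, and after median centring MET1 and MET8 were still without overlap while MET5 and MET10 were not.

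Cells that had recovered for 2 to 3 generations were compared with cells that had not been stressed. No gene passed in limma's fit (0%), with or without the block, and 47 genes (0.863%) and none of the 36 had an unadjusted p under 0.05. Differences of Sample E minus Sample A ranged from -0.46 for MET3 to 0.42 for MUP3 and were followed in size by MET4 (0.38 ± 0.49) and CBF1 (0.33 ± 0.46), all 4 with an adjusted p of 1.00 after rounding. MET3 had 8.81 and 9.18 in Sample E, against 9.47 and 9.45 in Sample A (95% interval of the difference -1.10 to 0.17). MUP3 had 8.84 and 8.72 in Sample E, against 8.16 and 8.56 in Sample A (-0.13 to 0.97). These arrays did not overlap. The median was 0.06 over the 36 and 0.13 over all genes. Sample E lay below Sample A in both culture batches in 6 of the 36 (16.7%), MET2, MET3, MET5, MET10, MET13 and SAM2, against 1.56% of all genes. After median centring the count was 16 (44.4%), against 30.3% of all genes.

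From early to late recovery 30 of the 36 genes had a higher mean in Sample E than in Sample D, as did 4731 of all 5449 genes. The median difference was 0.19 over the 36 and 0.25 over all genes, and after median centring the median of the 36 was -0.08. No gene passed in limma's fit (0%), while 213 genes (3.91%) and 2 of the 36, MUP1 and MET8, had an unadjusted p under 0.05. MUP1 had 11.04 and 11.09 in Sample E, against 10.23 and 10.05 in Sample D (0.93 ± 0.27, 1.90-fold, adjusted p = 0.853). It passed when these 2 samples were fitted alone (adjusted p = 0.0266 by limma, background 0.918% of all genes higher). MET4 had 9.56 and 9.92 in Sample E against 8.69 and 9.31 in Sample D (0.74 ± 0.49), and SAM3 9.66 and 9.90 against 9.43 and 8.93 (0.60 ± 0.33). MET28 was lower in Sample E, 5.48 and 5.62 against 5.92 and 6.53 (-0.67 ± 0.45). The adjusted p of each of these 3 was 0.853 by limma. As deposited, the arrays did not overlap in MUP1, MET4, SAM3 or MET28. After median centring those of SAM3 did (-0.18 in Sample E replicate 2, -0.17 in Sample D replicate 1). The MET28 values of Sample E lay close to the background of their arrays (5.25 and 5.47), so its difference is approximate. Sample E lay wholly above Sample D in 19 of the 36 (52.8%), against 47.9% of all genes, and after median centring in 3 (8.33%), against 18.6% of all genes.

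The culture batches were compared across the 5 samples. No gene passed, and the regulator genes CBF1 and MET28 had the lowest adjusted p-values of the 36. CBF1, which encodes a basic helix-loop-helix protein that also binds centromeres, had 9.43, 9.32, 9.48, 9.18 and 9.67 in replicate 2 of Samples A to E, against 8.65, 8.31, 8.84, 8.47 and 9.07 in replicate 1. As deposited, every replicate 2 array was above every replicate 1 array. After median centring Sample B replicate 2 (-0.87) lay below replicate 1 of Sample C (-0.78) and of Sample E (-0.66). The difference was 0.75 ± 0.13 (1.68-fold, higher in 5 of 5 samples, also after median centring), with an adjusted p of 0.0977 by limma in the fit with sample and batch. MET28 had 5.95, 7.02, 6.49, 6.53 and 5.62 in replicate 2, against 5.20, 6.17, 5.41, 5.92 and 5.48 in replicate 1 (0.69 ± 0.16, 5 of 5 as deposited and 4 of 5 after median centring, adjusted p = 0.0998). Of these MET28 values, Sample A replicate 1 lay below its background level (5.68). Sample C replicate 1 and both Sample E arrays lay close to theirs (5.31, 5.25 and 5.47), so the size of the difference is uncertain. STR3 had 8.00, 7.17, 7.24, 7.57 and 7.60 in replicate 2, against 7.09, 6.86, 6.66, 7.06 and 7.26 in replicate 1 (0.53 ± 0.14, 5 of 5 as deposited and 3 of 5 after median centring, adjusted p = 0.103). This comparison was added after the values had been seen.

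Without Sample B, CBF1, MET28 and STR3 were called higher in replicate 2, with adjusted p-values of 0.0141, 0.0371 and 0.0354 by limma, 3 of 36 (8.33%) against 4.53% of all genes. The MET28 call includes its values below or close to the background. After median centring none of the 3 passed in that fit (adjusted p = 0.0594, 0.138 and 0.14), against 1.05% of all genes. In all 5 samples replicate 2 was above replicate 1 in 6 of the 36 (16.7%), the 3 named and MET1, MET2 and MET32, against 23.2% of all genes. After median centring this held for CBF1 alone of the 36 (2.78%), against 13.2% of all genes. The median of all genes was higher in replicate 2 by 0.53 in Sample B and 0.33 in Sample E. MET4 and MET30 were higher in replicate 2 in 4 of 5 samples and MET31 in 3 of 5. For MET4 the batch difference was -0.24 in Sample A and 1.58 in Sample B.

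**Figure D4:**
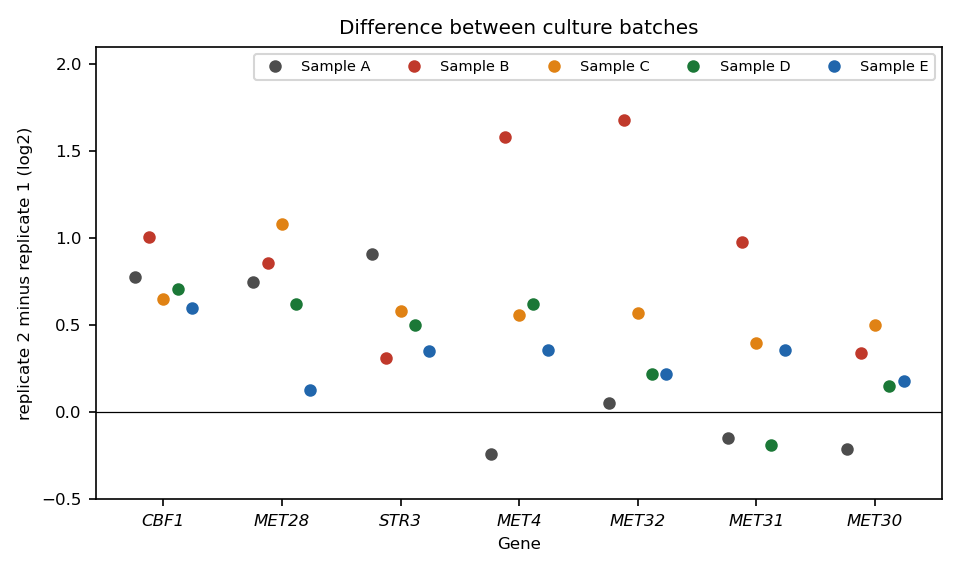
Log2 difference of replicate 2 minus replicate 1 (vertical axis) in each of Samples A to E (coloured points) for the 6 regulator genes and STR3. As deposited, CBF1, MET28, STR3 and MET32 lie above 0 in all 5 samples, with CBF1 between 0.60 and 1.01, while MET4, MET31 and MET30 have points on both sides of 0.

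Other members had smaller ranges. The range over the 10 arrays was below 1 for SUL2, MET14, which encodes adenylylsulfate kinase, MET16, the PAPS reductase gene, and MET22, the gene of the salt-sensitive phosphatase that removes the by-product of that step. It was also below 1 for MET8, MET10, MET7, MET12, MET13, CYS3, CYS4, GSH1 and MET30. MET22 had 10.73 and 11.46 in Sample B, against 11.67 and 11.34 in Sample A (-0.41 ± 0.30, adjusted p = 0.503 by limma). MET7 encodes folylpolyglutamate synthetase, and MET12 and MET13 methylenetetrahydrofolate reductases. MET12 had 10.75 and 10.98 in Sample B, which did not overlap the 10.42 and 10.35 of Sample A (0.48, adjusted p = 0.261).

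CYS4 and CYS3 lead from homocysteine to cysteine, by cystathionine beta-synthase and gamma-lyase. CYS3 had 13.52 and 12.64 in Sample B and 13.18 to 13.46 on the other 8 arrays, so that the Sample B arrays were the highest and the lowest. STR2, the cystathionine gamma-synthase gene of the opposite direction, had 9.33 and 10.19 in Sample B, against 9.45 and 9.14 in Sample A (0.47, adjusted p = 0.568). GSH1 encodes the first enzyme of glutathione synthesis and had the smallest range of the 36 (10.09 to 10.64). Over all 5 samples limma's F test called none of the 36, without the block (0.532% of all genes) or with it (3.27%).

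Of a wider list of 35 other genes of sulfur metabolism and its precursors, 34 were measured. In Sample B against Sample A, 1 passed and was lower (all genes 0.899%), HOM3, the aspartate kinase gene at the head of homoserine synthesis, with 11.50 and 11.04 in Sample B against 12.74 and 12.44 in Sample A (-1.32 ± 0.25, adjusted p = 0.0256 by limma). With the block it was joined by OPT1, an oligopeptide and glutathione transporter gene, which was lower (-1.31, adjusted p = 0.0411, all genes 2.59%), and AGP3, an amino acid permease gene, which was higher (1.11, adjusted p = 0.048, all genes 8.11%). OPT1 had 10.10 and 8.73 in Sample B against 10.96 and 10.49 in Sample A, and AGP3 had 7.54 and 6.69 against 6.18 and 5.83. None of the 34 passed in the other 6 comparisons, with or without the block. Their median in Sample B against Sample A was -0.14.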

How the data were processed

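RNA from 2 arrays in each of 5 samples was hybridised to Affymetrix Yeast Genome 2.0 arrays. The authors processed the scanned arrays with RMA (background correction, normalization and summary of probes) in Affymetrix Expression Console and deposited 1 log2 value per probe set and array. The program's version, and whether all arrays were normalized in 1 run, are not given in the sources used here. Array-wide shifts can therefore enter a difference, and the number of arrays limits every precision.

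Of 10928 probe sets, 5498 carried 1 symbol that matched a yeast gene in the RefSeq table of assembly R64. Where a gene had more than 1 probe set (47 genes), that with the highest mean was kept, which left 5449. The array names no genome build, so no coordinates are given. Each later sample was compared with Sample A, and Samples C, D and E with the sample before. Differences were tested with limma 3.58.1 in R 4.3.3, with 1 coefficient per sample over all 10 arrays and Benjamini-Hochberg adjustment over 5449 genes, two-sided, at an adjusted p of 0.05. Adjusted p-values and SEs are from this fit where none other is named.

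The labels state that replicates were grown as different culture batches, so the replicate number pairs arrays. Over all genes, deviations from the sample means correlated between same-numbered arrays by 0.22 to 0.52 (median 0.43, 10 pairs). Over the genes of methionine, cysteine and sulfate assimilation alone, the correlation ranged from -0.05 to 0.51. The lowest value in both sets was that of Samples A and B, 0.22 over all genes and -0.05 over these genes. For these genes, the pairing was thus not seen in the comparison of Sample B with Sample A. Results with the batch as a block are given where they change a call. All fits share 1 spread per gene across samples, whereas Sample B varied most, so its SEs can be too small and the others too large. In a simulation of Sample B against Sample A, 200 of 5449 genes were changed. At a log2 change of 1, 1 changed gene was recovered, with 1 false call, and at a change of 2, 178, with 6 false calls. The simulated noise was independent, with the same spread in every sample and no batch difference. It therefore does not describe Sample B, whose spread was wider.

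All 36 genes are named. Differences are given with a test for those past the threshold with or without the block and for the 4 largest in each comparison, and other differences were picked after their values were seen. The 36 genes and all lists were chosen with earlier results of these data known. Alternatives were median centring, quantile normalization, a filter on low values, another choice of probe set, fits of 2 samples alone, the block and each array left out. P-values measure the spread between these 2 batches only.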

Additional observations from a re-analysis of the deposited data

How the results depend on the processing

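For Sample B against Sample A, the 0 genes called became 1 with median centring and 2 with quantile normalization, 2 with the replicate block, which were SUL1 and MET28, and 2 with the block and either scaling, which were SUL1 and SAM4. The block changed no other count of calls. The median of -0.26 became -0.40 with centring and -0.45 with quantile normalization. For Sample D against Sample A the median of -0.12 became 0 with centring, and for Sample E against Sample D the median of 0.19 became -0.08 and -0.04 with the 2 scalings. With only those 2 samples fitted, 1 gene was called.

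With 1 array left out at a time, the calls ranged from 0 to 14 for Sample B against Sample A, 0 to 7 for Sample C against Sample B and 0 to 6 for any of the 5 samples, all highest without Sample B replicate 1. They stayed at 0 in the other 5 comparisons. Medians ranged from -0.27 to -0.12 for Sample B against Sample A, -0.20 to -0.08 for D against A, 0.02 to 0.36 for C against B and -0.23 to 0.03 for D against C. With a sample's pair left out, batch calls ranged from 0 to 3.

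With the block and without Sample B replicate 1, calls numbered 19 for B against A, 1 for D against A, 10 for C against B, 3 for D against C and 15 for any sample, and without replicate 2 they numbered 4, 1, 2, 3 and 4. These fits, and the batch comparison, were added after the data had been seen. In Sample C against Sample B, with 1 array left out, MET17 ranged from -0.53 (without Sample B replicate 2) to 2.1 and SAM1 from 0 (without the same array) to 3.03, and with the block and without that array MET17 was -0.56 and MET6 -0.04. CBF1 in Sample E against Sample A ranged from -0.06, without Sample A replicate 1, to 0.72. Of the values of single genes under the alternatives, 569 kept their direction and side of the threshold and 35 gained a call. Apart from the array left out, the cause of a change was not tested. With 2 arrays per sample, differences of log2 1 were mostly missed in a simulation that gave every sample the same spread and held no batch difference.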

Other observations

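Sample A replicate 2 was the highest of the 10 arrays for 6 of the 36 genes (16.7%), against 0.257% of all genes. They were MET10, SAM2, MHT1, STR3, MMP1 and SAM3. After median centring the count was 9 (25%), against 4.62% of all genes. The differences of replicate 2 minus replicate 1 in Sample A were 1.32 for MHT1, 0.91 for STR3 and 0.85 for MMP1. MHT1, the S-methylmethionine-homocysteine methyltransferase gene, and MMP1, the S-methylmethionine permease gene, have neighbouring locus tags. MHT1 had 8.32 and 9.64 in Sample A and 8.05 to 9.51 on the other 8 arrays, so its Sample A arrays spanned most of its range.

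Replicate 2 of Sample B was the lowest of the 10 arrays for 15 of the 36 genes (41.7%), against 15.2% of all genes, and after median centring for 21 (58.3%), against 33.6%. The lowest sample mean lay in Sample B for 18 of the 36 (50%), against 23.6% of all genes, and after median centring for 21 (58.3%), against 38.9%. These counts were chosen after the values had been seen and have no test.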
